A study of Mus musculus with 50 samples.

Results

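The *Hoxb* cluster on mouse chromosome 11 holds 10 genes, *Hoxb1* to *Hoxb9* and *Hoxb13*, and these were taken by name. All 10 have a promoter among the 22219 protein-coding genes of the annotation, and 7 of them (*Hoxb1*, *Hoxb2*, *Hoxb3*, *Hoxb4*, *Hoxb7*, *Hoxb9* and *Hoxb13*) are among the 18055 genes of the RNA count table. *Hoxb5*, *Hoxb6* and *Hoxb8* have no row in that table and are described from the peak lists alone. Of the 7 genes with counts, *Hoxb7*, *Hoxb9* and *Hoxb13* reached the mean of 5 normalized counts over all libraries that was required for a test.

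The cells are mouse embryonic stem cells (ESCs) of the E14 line, and the study asked how the enzymes of Polycomb repressive complex 2 (PRC2) shape its target genes. The lines were WT, *Ezh2* KO (deletion of *Ezh2*, with *Ezh1* intact), *Ezh1/2* dKO (deletion of both genes), *Ezh2* Y726D (a catalytically inactive knock-in made in *Ezh1* KO cells) and *Ezh2* R685C (a mutation with altered methylation activity, also made in *Ezh1* KO cells). The SUZ12 and H3K27me3 labels of *Ezh2* Y726D leave out the *Ezh1* KO that its other labels give, and treating them as the same line is an assumption. SUZ12, H3K27me3 and H3K27ac ChIP-seq and ATAC-seq are represented by 1 library per line and target, so their differences have no replicate check, and the sequencing depth behind each list is unknown. RNA-seq covers all of these lines but *Ezh2* R685C, with 2 libraries each. The study describes its samples as biological replicates, but neither it nor the labels say that these came from separate cultures, so their p-values measure the spread between libraries, which may be partly technical. WT H3K27ac and the RNA of *Ezh2* R685C were not analysed here.

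*Hox* genes encode homeodomain transcription factors that give cells along the head-to-tail axis of the embryo their regional identity. Within a cluster, genes at the 3′ end (*Hoxb1*) are used early and in anterior regions and genes at the 5′ end (*Hoxb9*, *Hoxb13*) late and in posterior regions. In ESCs the clusters are silent or nearly so and are textbook targets of PRC2, in which SUZ12 is a core subunit and EZH1 or EZH2 is the enzyme that methylates lysine 27 of histone H3 (H3K27me1, me2 and me3). Acetylation of the same residue, H3K27ac, marks active promoters and enhancers and cannot sit on a methylated lysine.

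The RNA libraries held 3604123 to 5181553 reads over genes. The labels were checked with the targeted genes. *Ezh2* had 1 read in each *Ezh2* KO library and 1 and 2 reads in the *Ezh1/2* dKO libraries, against 448 and 567 in WT and 473 and 548 in *Ezh2* Y726D. *Ezh1* stood at 227 and 377 normalized counts in WT, at 372 and 378 in *Ezh2* KO, at 14.01 and 20.4 in *Ezh1/2* dKO and at 24.1 and 15.7 in *Ezh2* Y726D. All 7 markers of pluripotent ESCs were expressed in every line, with *Pou5f1* between 1328 and 1916 normalized counts, and none was called by limma, edgeR or DESeq2 in the 5 comparisons, with 0 or 1 of 7 at an unadjusted p under 0.05. The *Ezh2* Y726D replicate 2 library stood apart in *Cdx2*, a trophectoderm marker and regulator of *Hox* genes, with 440 normalized counts against 1.05 to 83.5 in the other libraries.

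In the WT cells the *Hoxb* cluster was covered by PRC2. Counting the genes and 10 kb on each side (chr11:96045630-96239570, mm9), 35 SUZ12 peaks covered 25.6% of the sequence and 80 H3K27me3 peaks covered 44.4%. All 10 promoters, taken as 5 kb on each side of a start site, held a SUZ12 peak, where 14.2% of all protein-coding promoters did, and all 10 held an H3K27me3 peak, against 18.4% of all promoters. Windows of neighbouring *Hoxb* genes overlap and share peaks, so these promoters are not independent of each other. The strongest SUZ12 peak, with a -log10 p of 140.0, lay over *Hoxb6*, and the weakest promoter was that of *Hoxb13*, whose strongest peak had a -log10 p of 14.3. *Hoxb13* stands 74010 bp from *Hoxb9*, and between them the map shows the cluster's long gap without SUZ12.

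**Figure D1:**
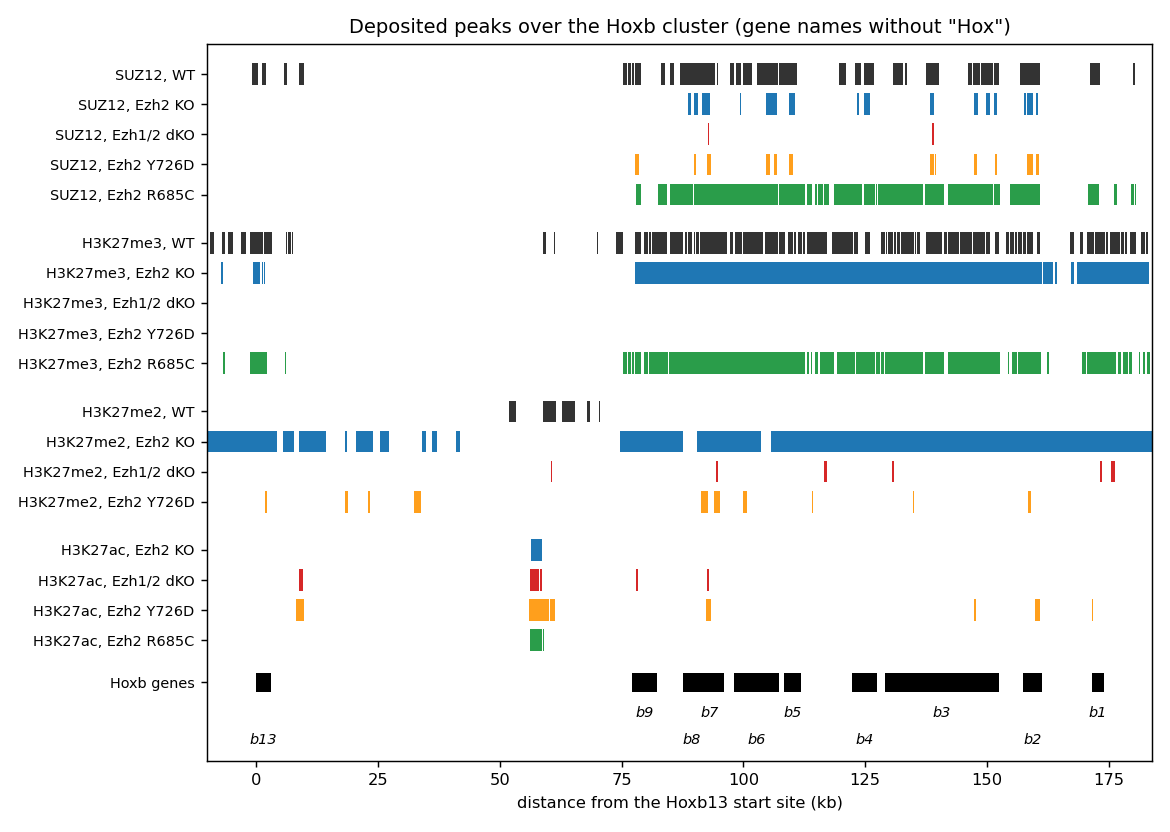
Peaks over the *Hoxb* cluster by distance from the *Hoxb13* start site in kb. Each block is a deposited peak and each row a library, with the genes in black at the bottom. H3K27me3 is a near-continuous block over *Hoxb9* to *Hoxb2* in *Ezh2* KO, is split into 80 peaks in WT and has no peak in *Ezh1/2* dKO or *Ezh2* Y726D.

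SUZ12 peaks covered less of the cluster than in WT in 3 mutant lines and more in *Ezh2* R685C, in lists that differ in length (317 peaks in *Ezh1/2* dKO to 5404 in WT). In *Ezh2* KO, 17 SUZ12 peaks covered 7.09% of the region and 7 of 10 *Hoxb* promoters held one, against 4.16% of all promoters and 29.2% of the 3162 promoters with SUZ12 in WT. *Hoxb1*, *Hoxb9* and *Hoxb13* were the promoters without a peak. In *Ezh2* Y726D, 12 peaks covered 4.25%, and again 7 promoters held a peak (10.1% of all promoters, 60.9% of those with SUZ12 in WT), here without *Hoxb1*, *Hoxb4* and *Hoxb13*. In *Ezh2* R685C, 22 peaks covered 38.9% of the region, more sequence than in WT, and 9 promoters held a peak (8.3% of all promoters, 56.5% of those with SUZ12 in WT), with *Hoxb13* missing. The widest of these R685C peaks ran for 17320 bp from *Hoxb8* to *Hoxb6*, and it was number 2 in width of the 3231 SUZ12 peaks of that line. In the lists as given, *Hoxb13* thus held SUZ12 in WT and in none of the 4 mutant lines. Its WT peak was weak, with a -log10 p of 14.3. At a threshold of 1e-20, WT itself held SUZ12 at 9 of 10 promoters, with *Hoxb13* missing. Whether binding at *Hoxb13* differed between the lines was not tested.

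The SUZ12 peaks that were found again in a mutant were mostly the strong ones of WT. The 12 WT peaks overlapped in *Ezh2* KO had a median -log10 p of 82.5 in WT, and the 23 not overlapped had 15.3. For *Ezh2* Y726D the medians were 99.1 for 8 peaks and 16.7 for 27, and for *Ezh2* R685C they were 27.5 for 27 peaks and 13.6 for 8. Conversely, 17 of 17 *Ezh2* KO peaks and 12 of 12 *Ezh2* Y726D peaks overlapped a WT peak, as did 15 of 22 *Ezh2* R685C peaks. These are single libraries, and a peak's p depends on a library's depth as well as on binding. The same overlaps over all peaks of the lists were not computed. Whether the cluster differs from the rest of the genome in them is therefore not known.

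In *Ezh1/2* dKO, 2 SUZ12 peaks remained over the cluster, covering 0.311% of it. Through them 3 of 10 promoters (*Hoxb3*, *Hoxb7* and *Hoxb8*) held a peak, against 1.01% of all promoters and 7.08% of those with SUZ12 in WT. *Hoxb7* and *Hoxb8* shared the same peak. Both peaks were weak, with a -log10 p of 11.4 and 10.7 where the list begins at 10. At a threshold of 1e-20 none was left, and 0.0315% of all promoters held one. Both lay inside strong WT peaks, of 109.3 and 110.4, and both were overlapped by SUZ12 peaks in each of the other mutant lines.

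Sequences of these places are shown because they are where SUZ12 was still listed in cells without either enzyme, with the strongest WT peak and the *Hoxb13* peak for contrast. All are plus strand of mm9, read from the reference genome, with CG dinucleotides, in which CpG islands are rich, in capitals. The first, chr11:96148301-96148500, is the whole *Ezh1/2* dKO peak at *Hoxb7*, whose 141 coding bases close exon 1 before intron 1 begins, 2730 to 2929 bp after the annotated start. That start is of the GENCODE model, whose coding sequence begins 2471 bp further on, and the RefSeq start of the authors was not used here. The second, chr11:96194353-96194652, is 300 bases, summit included, of the 403-bp *Ezh1/2* dKO peak within *Hoxb3*, in an intron. The third, chr11:96160491-96160785, is coding sequence of *Hoxb6* at the strongest WT summit. The fourth, chr11:96055757-96055963, is coding sequence of *Hoxb13* at the summit of its WT peak.
*Hoxb7* exon 1 and intron 1: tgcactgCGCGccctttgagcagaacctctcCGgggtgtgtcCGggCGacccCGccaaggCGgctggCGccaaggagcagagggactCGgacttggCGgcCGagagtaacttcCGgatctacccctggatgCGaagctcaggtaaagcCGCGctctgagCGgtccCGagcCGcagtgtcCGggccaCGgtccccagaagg
*Hoxb3* intron: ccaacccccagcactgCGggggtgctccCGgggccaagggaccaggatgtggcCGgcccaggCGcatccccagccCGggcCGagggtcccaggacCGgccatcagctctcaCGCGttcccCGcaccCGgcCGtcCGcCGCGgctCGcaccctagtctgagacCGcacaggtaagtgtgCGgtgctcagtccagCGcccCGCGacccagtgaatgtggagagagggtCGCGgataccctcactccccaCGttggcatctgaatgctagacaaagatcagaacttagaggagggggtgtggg
*Hoxb6* coding sequence: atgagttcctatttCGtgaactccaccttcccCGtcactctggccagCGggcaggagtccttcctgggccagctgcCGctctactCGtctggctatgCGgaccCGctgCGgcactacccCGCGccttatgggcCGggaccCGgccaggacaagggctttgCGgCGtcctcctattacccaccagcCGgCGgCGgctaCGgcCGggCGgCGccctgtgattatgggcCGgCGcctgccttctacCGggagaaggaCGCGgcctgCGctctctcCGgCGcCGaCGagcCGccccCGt
*Hoxb13* coding sequence: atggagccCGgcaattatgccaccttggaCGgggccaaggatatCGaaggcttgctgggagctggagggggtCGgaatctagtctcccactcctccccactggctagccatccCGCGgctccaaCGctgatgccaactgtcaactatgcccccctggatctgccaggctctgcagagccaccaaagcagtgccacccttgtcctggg

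The *Hoxb7* stretch holds 20 CG in 200 bases (68.0% G or C), the *Hoxb3* stretch 24 in 300 (68.0%), the *Hoxb6* stretch 33 in 295 (69.5%) and the *Hoxb13* stretch 7 in 207 (61.8%). Over 200 bases around each summit, the 35 WT peaks of the cluster held 0 to 23 CG with a median of 10, and all 5404 WT SUZ12 peaks a median of 16. At the 45961 start sites of protein-coding transcripts the median was 10 as well. At least 1 CG, on either strand since the motif reads the same on both, was found in 94.3% of the cluster's windows, 99.7% of all WT SUZ12 windows and 94.6% of the start-site windows.

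**Figure D2:**
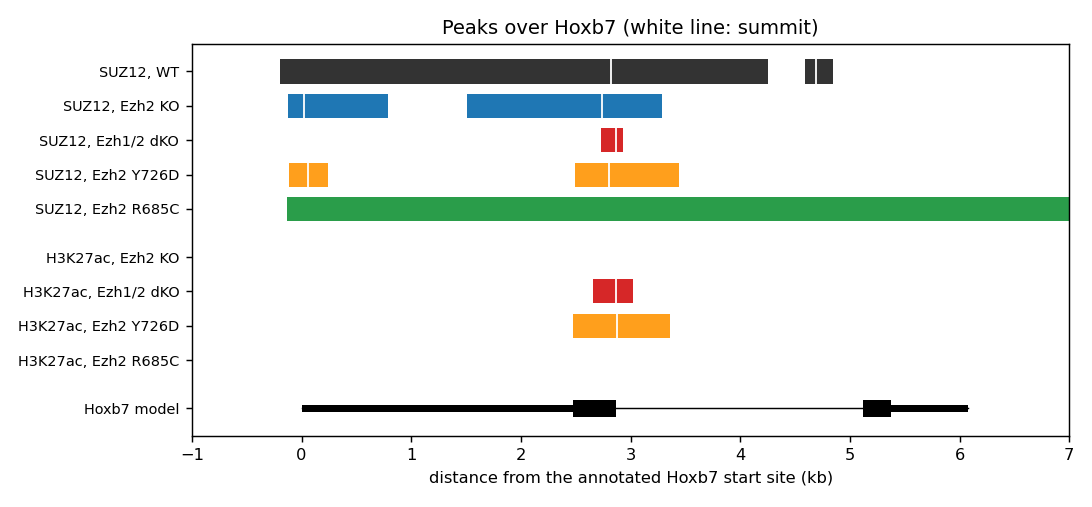
Peaks of SUZ12 and H3K27ac over *Hoxb7* by distance from its annotated start site in kb, 1 row per library, with the summit as a white line and the gene model below (thick: coding). The *Ezh1/2* dKO SUZ12 peak and the H3K27ac peaks of *Ezh1/2* dKO and *Ezh2* Y726D lie on the end of exon 1, with summits 2865 to 2874 bp from the start.

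H3K27me3 peak coverage did not order the lines as SUZ12 coverage did. Its shares and -log10 p come from single lists that no spike-in scaled, so they give where peaks were called and do not rank the amount of the mark between lines. In *Ezh2* KO it covered 53.3% of the region, more than in WT, and SUZ12 covered less. A single peak of 83415 bp (chr11:96133418-96216832, -log10 p of 489.6) ran from *Hoxb9* to *Hoxb2*, and it was the widest of the 8956 H3K27me3 peaks listed for that line. In *Ezh2* R685C, 36 peaks covered 47.9%, and the 27991-bp peak over *Hoxb8* to *Hoxb5* (-log10 p of 587.8) was the widest of 22245. WT had no peak wider than 4088 bp here and none stronger than 32.1. At a threshold of 1e-20 its share fell to 8.06% and its promoters with H3K27me3 to 6, against 7.12% of all promoters. All 10 promoters held H3K27me3 in *Ezh2* KO (14.5% of all promoters) and in *Ezh2* R685C (24.0%). In *Ezh1/2* dKO and *Ezh2* Y726D no H3K27me3 peak lay anywhere in the region, and 0 of 10 promoters held one, where 0.09% and 1.13% of all promoters did.

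Within the cluster, *Hoxb13* differed in H3K27me3 from the block of *Hoxb9* to *Hoxb1*, most in *Ezh2* KO and less in *Ezh2* R685C. Its gene body was covered by H3K27me3 to 96.1% in WT, 38.7% in *Ezh2* KO and 73.7% in *Ezh2* R685C. *Hoxb1* was covered to 93.3%, 100% and 100% in the same lines, and *Hoxb9*, the nearest gene of the block, to 68.3%, 87.4% and 81.7%. The strongest H3K27me3 peak near *Hoxb13* in *Ezh2* KO had a -log10 p of 15.3, against 224.6 near *Hoxb1* and 489.6 for the other 8 genes, which share 1 peak. In *Ezh2* R685C the strongest near *Hoxb13* had 156.5, and those near the other genes had 404.6 (*Hoxb4*) to 587.8 (such as *Hoxb5*).

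**Figure D3:**
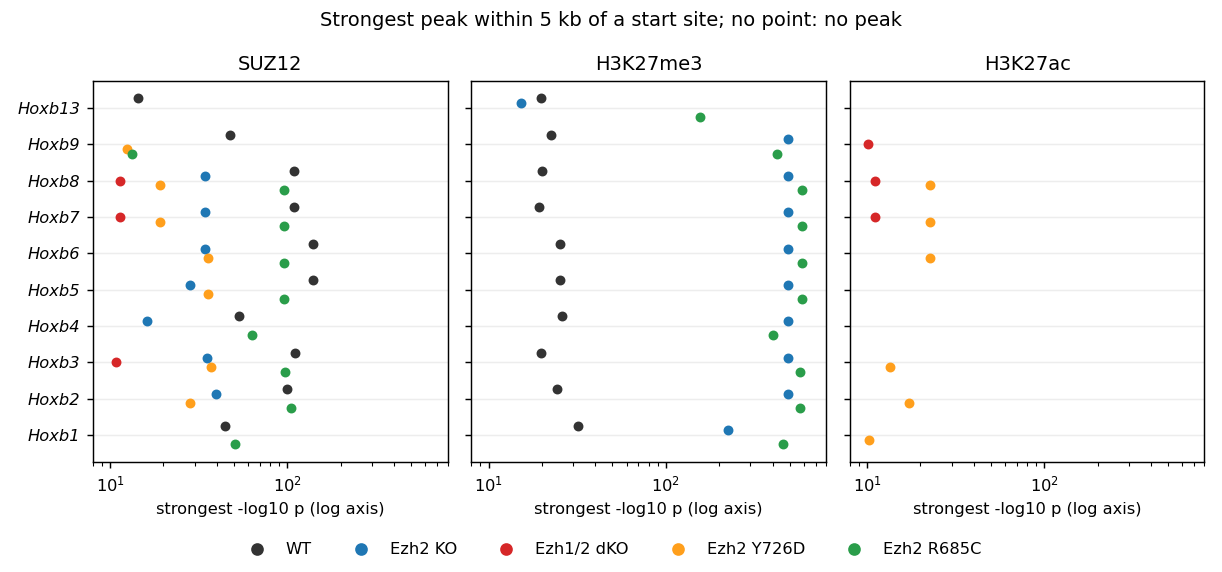
Strongest -log10 p (log axis) of a peak within 5 kb of a start site for each *Hoxb* gene, 1 point per line, for SUZ12, H3K27me3 and H3K27ac. A missing point is a promoter without a peak, and H3K27ac points are present only for *Ezh1/2* dKO and *Ezh2* Y726D.

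Of the 4 lines with H3K27me2 data, *Ezh2* KO had by far the most of the cluster covered by the dimethyl mark, and H3K27me2 and H3K27me1 of *Ezh2* R685C were not analysed here. In WT, H3K27me2 regions covered 3.88% of the cluster and touched 0 of 10 *Hoxb* promoters, although 68.6% of all promoters had one. In *Ezh2* KO they covered 69.5% and touched 10 of 10 promoters (50.7% of all promoters), with a block of 87751 bp from *Hoxb6* past *Hoxb1*. In *Ezh1/2* dKO and *Ezh2* Y726D they covered 1.41% and 3.80%, touching 4 and 6 promoters where 82.1% and 83.3% of all promoters had one. These last regions had a -log10 p of 1.62 at most, against 7.19 in *Ezh2* KO. H3K27me1 regions covered 6.84% of the region for *Ezh2* Y726D and 0% for WT, with *Ezh2* KO at 2.71% and *Ezh1/2* dKO at 1.13%. They touched 8 of 10 promoters in *Ezh2* Y726D (42.4% of all promoters), 0 in WT (63.5%), 1 for *Ezh2* KO (57.9%) and 3 for *Ezh1/2* dKO (60.4%). All were weak, with a -log10 p of at most 1.45 in *Ezh2* Y726D and 2.17 in any line. None was left at a threshold of 1e-05, where 0.009% to 0.567% of all promoters held one.

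H3K27ac was found on *Hoxb* genes in the lines whose cluster had no H3K27me3 peak. In *Ezh1/2* dKO, 3 of 10 promoters held an H3K27ac peak (*Hoxb7*, *Hoxb8* and *Hoxb9*), against 27.8% of all promoters and 19.0% of the promoters with SUZ12 in WT. In *Ezh2* Y726D, 6 did (*Hoxb1*, *Hoxb2*, *Hoxb3*, *Hoxb6*, *Hoxb7* and *Hoxb8*), against 46.1% and 45.3%, so neither share stood far above its background. In *Ezh2* KO and *Ezh2* R685C, 0 of 10 did, where 37.0% and 45.2% of all promoters and 14.8% and 21.0% of those with SUZ12 in WT did. The *Hoxb7* peak, which also falls in the *Hoxb8* window and in *Ezh2* Y726D in that of *Hoxb6*, was 369 bp wide with a -log10 p of 11.1 in *Ezh1/2* dKO and 877 bp wide with 22.7 in *Ezh2* Y726D. It overlapped the *Ezh1/2* dKO SUZ12 peak shown above. The *Ezh2* Y726D peak at *Hoxb1* lay 203 bp after the start site (-log10 p of 10.3) and that in *Hoxb2* 3153 bp after it (17.2). WT H3K27ac was not analysed here, so no peak can be called gained.

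A further H3K27ac site lay outside the *Hoxb* genes, at the start of *Gm53*, a gene between *Hoxb13* and *Hoxb9*. It was present in all 4 mutant lines, with a -log10 p of 27.6 in *Ezh2* KO, 29.5 in *Ezh1/2* dKO, 81.2 in *Ezh2* Y726D and 47.5 in *Ezh2* R685C, and no SUZ12 peak lay on it in any line. *Gm53* RNA stood between 33.0 and 61.9 normalized counts in all 8 libraries and was not called in any comparison. Another place held a WT SUZ12 peak (-log10 p of 17.6) and H3K27ac in *Ezh1/2* dKO (10.5, summit 9184 bp past the *Hoxb13* start) and *Ezh2* Y726D (24.4, summit 9438 bp past it).

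ATAC-seq separated the lines little by promoters with a region, and the share of the cluster covered differed more. Accessible regions covered 41.3% of the WT cluster, 35.0% of that of *Ezh2* KO, 48.1% of that of *Ezh1/2* dKO and 42.4% of that of *Ezh2* Y726D. All 10 promoters held one in each line, and of all promoters 95.1%, 95.4%, 95.2% and 95.0% did in the same order. The regions were weak over all promoters and not over *Hoxb* alone. The strongest near a *Hoxb* promoter had a -log10 p of 3.03, 2.68, 2.01 and 3.93, in that order again. Taking the strongest region of each promoter, the lowest *Hoxb* value was 1.56, 1.56, 1.45 and 1.56. The median over all promoters was 1.85, 1.94, 1.81 and 1.89, inside the *Hoxb* range in each line. At a threshold of 1e-05 no *Hoxb* promoter held a region, and of all promoters 0.185%, 0.833%, 0.144% and 0.279% did.

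Of the 3 *Hoxb* genes tested, *Hoxb7* was the one called by limma over all libraries, and *Hoxb13*, described further on, was called in *Ezh1/2* dKO under other settings. *Hoxb7*, a gene of the posterior trunk, had 0 normalized counts in both WT libraries and 1.05 and 0 in *Ezh2* KO. It had 29.7 and 11.5 in *Ezh1/2* dKO and 20.5 and 6.71 in *Ezh2* Y726D. The libraries of these last lines overlapped each other and lay above every WT and *Ezh2* KO library. Pooled, *Ezh1/2* dKO had 49 reads and *Ezh2* Y726D 29 against 0 in WT. With WT set to a floor of 3 reads over the line and their own reads taken as counted, they were 12.5-fold and 8.58-fold higher. Bulk libraries cannot tell more RNA per cell from more cells that express the gene.

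In limma's test across 13872 genes, *Hoxb7* was called in *Ezh1/2* dKO against WT, with a log2 fold change of 4.29 (SE 0.80, adjusted p = 0.0319) on the scale of log2(normalized count + 1). It was 1 of 3 *Hoxb* genes tested, and 3.63% of all genes were called higher (503 of 557 calls, or 290 of 419 after quantile normalization). In *Ezh2* Y726D against WT it was called at 3.69 (SE 0.80, adjusted p = 0.0598), again 1 of 3, with 1.66% of all genes called higher. Against *Ezh2* KO, *Ezh1/2* dKO was higher by 3.78 (SE 0.80, adjusted p = 0.0467), where 3.52% of all genes were called higher. These fitted values depend on the added count of 1 and are no bounds. *Hoxb7* passed the filter on low values through the lines in which it was high, so counts over the *Hoxb* genes that passed describe them and carry no weight as evidence. The calls rest on few libraries: the first was lost without either *Ezh1/2* dKO library (limma adjusted p of 0.300 and 0.215), the second without either WT library or *Ezh2* Y726D replicate 1 (0.126, 0.121 and 0.160) and the third without any 1 of its 4 libraries (0.137 to 0.454). The second was also lost by edgeR (adjusted p of 0.104) and after quantile normalization (limma adjusted p of 0.106), as was the third after quantile normalization (0.217).

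**Figure D4:**
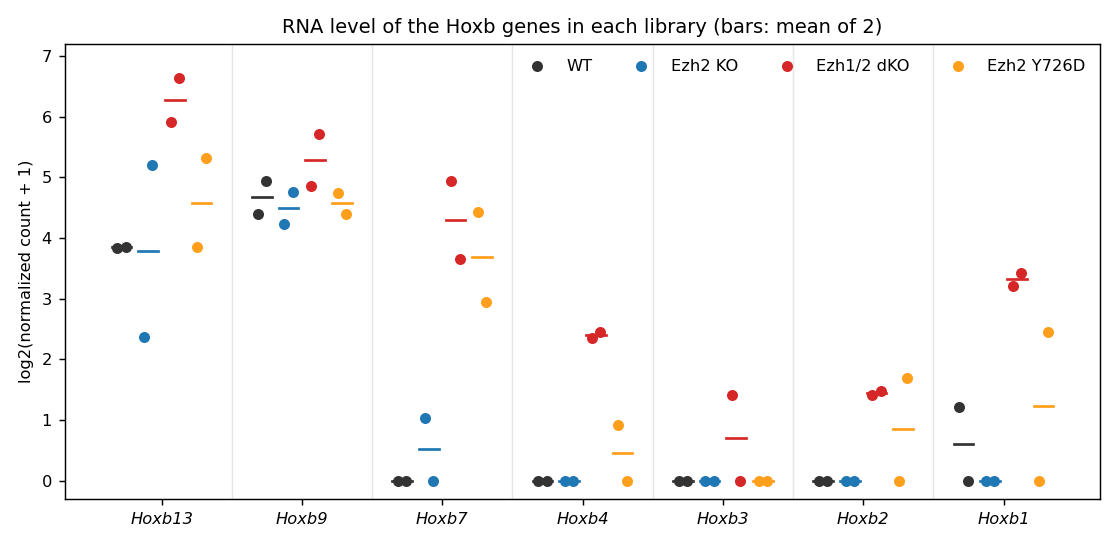
log2(normalized count + 1) of the 7 *Hoxb* genes of the count table, 1 point per library and a bar at the mean of 2, in 4 lines. *Hoxb7* was at 0 in WT and up to 29.7 normalized counts in *Ezh1/2* dKO, while *Hoxb9* overlapped between WT and the other lines.

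*Ezh2* KO against WT gave 0 of 3 *Hoxb* genes called, where 0.404% of all genes were called, and none of the 3 had an unadjusted p under 0.05. edgeR and DESeq2 called none either. The log2 fold changes were 0.52 for *Hoxb7* (SE 0.80), -0.17 for *Hoxb9* (SE 0.46) and -0.06 for *Hoxb13* (SE 0.84). *Ezh2* Y726D against *Ezh1/2* dKO also gave 0 of 3, with 1.68% of all genes called (26 higher of 233, or 50 of 218 after quantile normalization), none with an unadjusted p under 0.05 and none called by edgeR or DESeq2. There *Hoxb7* differed by -0.61 (SE 0.80) and *Hoxb13* by -1.69 (SE 0.84), so differences of these sizes could not be told from the spread between libraries.

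*Hoxb13*, the most posterior gene, was detected in all 8 libraries. It had 13.3 and 13.5 normalized counts in WT, 4.18 and 35.8 in *Ezh2* KO, 59.3 and 98.6 in *Ezh1/2* dKO and 13.4 and 39.2 in *Ezh2* Y726D. Both *Ezh1/2* dKO libraries lay above the other 6, and the *Ezh2* KO libraries lay on either side of WT. Its log2 fold change in *Ezh1/2* dKO against WT was 2.43 (SE 0.84) with an adjusted p of 0.172 in limma, which was not called. It was called by DESeq2 (adjusted p of 0.0376) and when limma was given the libraries of these lines alone (0.0379). Pooled reads were 183 against 24, a ratio of 5.83 with a 95% counting interval of 3.80 to 9.33. Such intervals leave out the spread between libraries. Against *Ezh2* KO, whose libraries held 4 and 37 reads, the log2 fold change was 2.49 (SE 0.84, limma adjusted p = 0.211) and the pooled ratio 3.80 (2.69 to 5.47). That difference was called by limma with the libraries of these lines alone (adjusted p of 0.0654) and without *Ezh2* KO replicate 2 (adjusted p of 0.0652).

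*Hoxb9*, a gene of the thoracic region, was expressed in WT as well and was called in no comparison. It had 20.01 and 29.8 normalized counts in WT, 17.8 and 26.1 in *Ezh2* KO, 28.0 and 51.5 in *Ezh1/2* dKO and 25.9 and 20.1 in *Ezh2* Y726D, and every line overlapped WT.

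The 4 remaining genes lay under the filter and were not tested. *Hoxb1*, the most anterior gene and a hindbrain regulator, had 10 and 11 reads in *Ezh1/2* dKO, 0 and 4 in *Ezh2* Y726D, 1 and 0 in WT and none in *Ezh2* KO. Pooled, *Ezh1/2* dKO was 16.1 times WT, with a 95% counting interval of 2.58 to 664, and 5.95-fold higher than *Ezh2* KO set to the floor. Intervals cover counting error only, and the floor covers it only for the line with 0 reads. *Hoxb4*, known for expanding blood stem cells when overexpressed, had 10 reads over both *Ezh1/2* dKO libraries, 1 in *Ezh2* Y726D and 0 in WT and *Ezh2* KO. *Ezh1/2* dKO was 2.55-fold higher than WT set to the floor. *Hoxb2* and *Hoxb3* also act in the hindbrain. *Hoxb2* had 4 reads in *Ezh1/2* dKO and 2 in *Ezh2* Y726D, and *Hoxb3* 2 reads in *Ezh1/2* dKO. Both had none elsewhere. As a count of 0 allows up to 3 reads, a difference from WT was not detectable for either, with a ratio to the floor of 1.02 for *Hoxb2*. Taken over *Hoxb1*, *Hoxb2*, *Hoxb3*, *Hoxb4* and *Hoxb7*, the libraries held 55 and 31 reads in *Ezh1/2* dKO, 24 and 12 in *Ezh2* Y726D, 1 and 0 in *Ezh2* KO and 1 and 0 in WT. This sum leaves out *Hoxb9* and *Hoxb13*, which held nearly all WT and *Ezh2* KO reads, so its low totals there follow from the choice of genes. *Hoxb7* alone gave 36 and 13 of the *Ezh1/2* dKO reads and 23 and 6 of those of *Ezh2* Y726D.

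Per kb of exon (GENCODE models), the *Hoxb* genes of *Ezh1/2* dKO stood in the order *Hoxb13* (35.8 ± 12.6 normalized counts per kb, SD, n = 2), *Hoxb9* (15.4 ± 6.4), *Hoxb7* (5.05 ± 3.14), *Hoxb1* (3.88 ± 0.46), *Hoxb4* (1.03 ± 0.05), *Hoxb2* (0.518 ± 0.027) and *Hoxb3* (0.274 ± 0.388). The libraries of *Hoxb7* and *Hoxb1* overlapped on this scale, as did those of *Hoxb2* and *Hoxb3*, and the other neighbours in the order did not. The reads were counted on RefSeq genes, whose exon lengths were not used here. The GENCODE model of *Hoxb7* starts 2471 bp before its coding sequence. With RefSeq lengths its value, the order and these overlaps could differ. In WT, *Hoxb9* (9.68 ± 2.70) and *Hoxb13* (6.08 ± 0.04) led, *Hoxb1* had 0.287 ± 0.406 and the other 4 were at 0. Counting did not use strand, the gene models of *Hoxb7* and *Hoxb8* overlap, and antisense transcripts are annotated over *Hoxb3* and *Hoxb2*, so reads of these genes may include others.

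H3K27ac and RNA of *Ezh1/2* dKO and *Ezh2* Y726D are set side by side here. H3K27ac covered 2.09% of the region in *Ezh1/2* dKO and 4.77% in *Ezh2* Y726D, in lists of 17618 and 40829 peaks, and the RNA of 7 *Hoxb* genes summed to 133 and 178 normalized counts in *Ezh1/2* dKO and to 60.6 and 72.7 in *Ezh2* Y726D. *Hoxb13*, which had no H3K27ac peak within 5 kb in the 4 lines measured, made up 59.3 and 98.6 of the *Ezh1/2* dKO sums. With 1 H3K27ac library per line and lists of such unequal length, the order of the lines in H3K27ac could not be tested. Both RNA comparisons with WT share the same WT libraries.

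The *Hoxb* cluster was compared with the other *Hox* clusters, measured with the same flanks. SUZ12 in *Ezh2* KO covered 20.6% of *Hoxa*, 7.09% of *Hoxb*, 0% of *Hoxc* and 19.1% of *Hoxd*, and H3K27me3 in that line covered 74.3%, 53.3%, 9.99% and 73.1%. In WT the H3K27me3 shares were 73.6%, 44.4%, 63.9% and 65.2%, and the low *Hoxb* share includes the gap before *Hoxb13*. Over *Hoxb1* to *Hoxb9* alone, H3K27me3 covered 65.3% in WT and 86.6% in *Ezh2* KO. H3K27ac in *Ezh2* Y726D covered 30.6% of *Hoxa*, 4.77% of *Hoxb*, 26.4% of *Hoxc* and 19.1% of *Hoxd*, so *Hoxb* carried the least, with *Gm53* included. With 1 library each, these differences could not be tested.

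**Figure D5:**
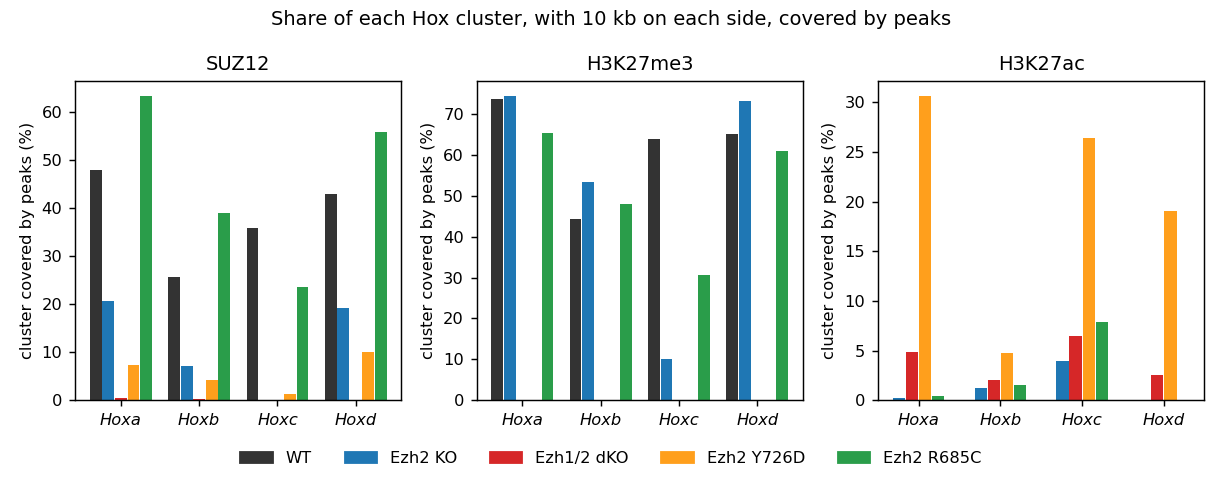
Share of the *Hoxa*, *Hoxb*, *Hoxc* and *Hoxd* clusters, each with 10 kb on each side, covered by SUZ12, H3K27me3 or H3K27ac peaks in percent, 1 bar per library. H3K27ac in *Ezh2* Y726D covered 4.77% of *Hoxb* and 19.1% to 30.6% of the other clusters.

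In the RNA, 10 of 17 tested *Hox* genes of the other clusters were called higher in *Ezh1/2* dKO than in WT, 9 of 17 in *Ezh2* Y726D, 0 of 17 in *Ezh2* KO and 8 of 17 in *Ezh1/2* dKO against *Ezh2* KO, with none lower. Over all genes these shares were 3.63%, 1.66%, 0.404% (either direction) and 3.52%. Of 29 such genes listed, 17 passed the filter on low values, some, such as *Hoxa11* with 0 reads in WT, through the lines in which they were high, so these counts and medians are descriptions too. In *Ezh2* KO 2 of 17 had an unadjusted p under 0.05, and edgeR and DESeq2 called none. Their median log2 fold changes against WT were 3.35, 2.97 and 0.33 in *Ezh1/2* dKO, *Ezh2* Y726D and *Ezh2* KO. The 3 tested *Hoxb* genes had medians of 2.43, 0.74 and -0.06, and all 13872 genes had 0.01, -0.01 and -0.01. *Hoxa10* had the largest change, 6.88 in *Ezh1/2* dKO (SE 0.83, limma adjusted p = 0.00845) and 7.90 in *Ezh2* Y726D (SE 0.83, limma adjusted p = 0.00574), followed by *Hoxd13* (4.86) and *Hoxa9* (4.84) in the first and *Hoxa9* (6.48) and *Hoxa11* (5.85) in the second. *Hoxa10*, *Hoxa9* and *Hoxd13* also led in *Ezh1/2* dKO against *Ezh2* KO (6.50, 5.31 and 4.86).

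HOX proteins bind DNA with PBX, MEIS and PREP (*Pknox*) cofactors, and all 9 cofactor genes listed were tested. *Meis1* was called higher against WT by 1.96 on the log2 scale in *Ezh2* KO (limma adjusted p = 0.0909), by 2.73 in *Ezh1/2* dKO (0.0110) and by 1.84 in *Ezh2* Y726D (0.0480), each with an SE of 0.36, from 29.3 and 16.4 normalized counts in WT. It was not called in *Ezh2* KO by edgeR or after quantile normalization. *Meis2* was called higher in *Ezh2* KO (1.36, SE 0.19, limma adjusted p = 0.0262) and had 0.96 (limma adjusted p = 0.0480) in *Ezh2* Y726D, short of the fold required. There edgeR called it higher and DESeq2 did not. No other cofactor was called. Among 9 tested genes of 13 that act upstream of *Hox* genes, *Cdx4*, a caudal-type activator of posterior *Hox* genes, was called higher in *Ezh1/2* dKO (2.56, SE 0.66, limma adjusted p = 0.0818), but not after quantile normalization or by DESeq2, which called *Rara* lower. *Rarg*, a retinoic acid receptor, was called higher in *Ezh2* Y726D than in *Ezh1/2* dKO (1.03, SE 0.19, limma adjusted p = 0.0517), but not after quantile normalization. *Cdx2* moved with 1 library of *Ezh2* Y726D as given above, in which *Hoxb7* was the lower of the pair. Without that library *Hoxb7* in *Ezh2* Y726D against WT had a log2 fold change of 4.43 and a limma adjusted p of 0.0841.

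The genes around the cluster did not follow it. Of the 10 table genes that start within 300 kb outside the cluster, 8 were tested and 0 were called in any comparison, with 0 at an unadjusted p under 0.05 against WT in each mutant line and 0 called by edgeR or DESeq2. The nearest on the *Hoxb13* side, *Ttll6*, 60530 bp away, had a log2 fold change of 0.61 in *Ezh1/2* dKO against WT (SE 0.77), and *Gm11529*, 96291 bp away on the *Hoxb1* side, was not tested with at most 1.33 normalized counts. *Skap1*, 96337 bp away, had -0.18 (SE 0.89).

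Markers of other cell types were checked in the same libraries. The 3 tested primitive streak and mesoderm genes, 3 trophectoderm genes and 2 neural genes gave 0 calls against WT in each mutant line by limma, edgeR and DESeq2, with 0 to 2 genes of a list at an unadjusted p under 0.05. In *Ezh2* Y726D the primitive streak list summed to 66.9 and 183 normalized counts, and at most 68.4 in the other lines. The trophectoderm list summed to 87.4 and 558, and at most 126 in the other lines. Replicate 2 gave the higher sum of both lists. The endoderm list, 5 of 5 genes in the table, summed to 57.7 to 95.9 normalized counts in *Ezh1/2* dKO, 36.9 to 38.3 in *Ezh2* Y726D, 4.18 to 25.2 in *Ezh2* KO and 6.67 to 14.4 in WT, with *Gata4* called against WT in *Ezh1/2* dKO by limma and edgeR (not by DESeq2, which called *Sox7*, nor after quantile normalization) and with *Foxa2* and *Sox17* at 0 in both *Ezh2* Y726D libraries. The fibroblast list, 3 of 4 genes in the table, summed to 98.1 to 115 in *Ezh1/2* dKO, 86.1 to 88.3 in *Ezh2* Y726D and at most 16.7 in WT and *Ezh2* KO, nearly all of it *Thy1*. *Thy1*, the gene of that list that was tested, was called higher against WT in *Ezh1/2* dKO and *Ezh2* Y726D. Its limma log2 fold changes were 3.53 and 3.30, and it was also called by edgeR, by DESeq2 and after quantile normalization. Between lines, the endoderm and fibroblast sums were higher where *Hoxb7* was higher. Within *Ezh1/2* dKO they were not: replicate 2 had the higher sums and the lower *Hoxb7* value (11.5 against 29.7). The part of such cells in the *Hoxb7* level was not tested.

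The 5 tested genes whose log2 values ran most like the mean of *Hoxb7*, *Hoxb9* and *Hoxb13* over the 8 libraries were *Slc16a10* (Pearson's r of 0.984), *Slc4a8* (0.977), *Dock3* (0.975), *Gata4* (0.973) and *Stx17* (0.972). The libraries fall into lines, so these values describe a shared difference between lines.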

How the data were processed

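RNA-seq, ChIP-seq and ATAC-seq of mouse E14 ESC lines were analysed from the processed files. For RNA-seq the authors deposited normalized counts, a signal made by counting reads per RefSeq gene on mm9 without strand (TopHat, HTSeq-count) and dividing them by DESeq2 size factors. All values (100%) were whole multiples of the worth of 1 read, within a tolerance of 0.01 reads, so reads were recovered. For peaks the authors deposited MACS2 lists on mm9 after Bowtie alignment and removal of duplicates, with strength as -log10 p, and depth is unknown. The narrow lists begin at a p of 1e-10, and the H3K27me1, H3K27me2 and ATAC-seq lists hold broad regions down to weak p-values.

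The lines were compared with limma 3.58.1 (R 4.3.3) on log2(normalized count + 1) over all 8 libraries, for the 13872 genes with a mean of at least 5, adjusted by Benjamini-Hochberg over all of them. A gene was called when its adjusted p was under 0.1 and it differed by 1 or more on the log2 scale, up or down. edgeR 4.0.16 and DESeq2 1.42.0 on the recovered reads called 568 and 594 genes in *Ezh1/2* dKO against WT, where limma called 557. Ratios of pooled reads carry exact 95% binomial intervals, with a floor of 3 reads per line. The floor replaces a count of 0, and the reads of the other line are taken as counted. Promoters are 5 kb on each side of GENCODE start sites on mm9, with an overlap of 1 bp. Named were all *Hoxb* genes, the 3 most changed *Hox* genes of other clusters, called cofactors and upstream regulators, the nearest neighbours and the 5 genes most alike over libraries. *Cdx2*, *Gm53* and the marker genes with values were singled out after their values were seen. Members and lists were chosen with earlier results of these data known. The test was tried on simulated counts. Python 3.11.15 was used for the peaks. Alternatives covered normalization, count tests, filters, the pseudocount, thresholds, windows, the replicate block and each library left out.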

Additional observations from a re-analysis of the deposited data

Results flagged for a closer look

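One signal lay in data outside the comparisons above. Human EZH1 with an HA tag was put back into *Ezh1/2* dKO ESCs by transient transfection, and HA ChIP-seq was made in these cells and in untagged *Ezh1/2* dKO ESCs, with 1 library each. Over the *Hoxb* region the tagged cells had 19 HA peaks that covered 13.8% of the sequence, and the untagged cells had 0. All 19 overlapped a WT SUZ12 peak, and in turn they overlapped 18 of 35 WT SUZ12 peaks, with a median -log10 p of 49.5 in WT against 14.2 for the 17 that were not. An HA peak lay at 8 of 10 *Hoxb* promoters in the tagged cells, where 10.6% of all protein-coding promoters had one, and at 0 of 10 in the untagged cells, where 2.6% had one. Both *Ezh1/2* dKO SUZ12 peaks of the cluster, including the one at *Hoxb7*, were overlapped by HA peaks. With 1 library per condition the difference was not tested. The overlaps of HA and SUZ12 peaks were not computed over the whole genome, so they describe this cluster alone.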

How the results depend on the processing

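The number of *Hoxb* genes called moved by single genes. For *Ezh1/2* dKO against WT (1 called) it was 2 with DESeq2, 2 without a filter on low values, 2 with only the lines compared, 0 at a mean of at least 20, and 0 to 1 with a library left out. The added genes were *Hoxb13* and, without the filter, *Hoxb4* (limma adjusted p of 0.0616). For *Ezh2* Y726D against WT (1) it was 0 after quantile normalization, with edgeR, at a mean of at least 20, with only the lines compared and at an adjusted p under 0.05, and 0 to 1 with a library left out. For *Ezh1/2* dKO against *Ezh2* KO (1) it was 0 after quantile normalization and at a mean of at least 20, 2 with only the lines compared, 3 without a filter (*Hoxb7*, *Hoxb4* at 0.0579 and *Hoxb1* at 0.0955), and 0 to 1 with a library left out, the 1 being *Hoxb13* without *Ezh2* KO replicate 2. *Hoxb7* has a mean under 20, so that filter removes it. Where a line was left with 1 library, that library was assumed to vary like the other lines, and the calls over all genes in *Ezh1/2* dKO against WT fell from 557 to 5 and 3 without either *Ezh1/2* dKO library (285 at an adjusted p under 0.05). The log2 fold change of *Hoxb7* in *Ezh1/2* dKO against WT stayed between 3.65 and 4.94 over the left-out libraries.

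The differences that turned direction were not called. *Hoxb13* in *Ezh2* KO against WT was at 0.046 after quantile normalization, 0.60 with edgeR, 0.60 with edgeR without a filter (added after seeing the data) and 0.58 with DESeq2, and between -1.48 and 1.35 with a library left out. With a library left out, *Hoxb9* against WT was between -0.45 and 0.10 in *Ezh2* KO and between -0.37 and 0.18 in *Ezh2* Y726D, *Hoxb13* from -0.0036 to 1.48 in *Ezh2* Y726D against WT, and *Hoxb7* from -1.35 to 0.13 in *Ezh2* Y726D against *Ezh1/2* dKO. The cause was not tested.

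Promoter counts depended on threshold and window. Shares over all promoters are given in brackets. At 1e-20, SUZ12 was left at 0 promoters in *Ezh1/2* dKO (0.0315%) and 4 in *Ezh2* Y726D (2.38%), and H3K27me3 at 6 in WT (7.12%). H3K27ac was left at 0 in *Ezh1/2* dKO (8.97%) and 3 in *Ezh2* Y726D (24.1%), and ATAC-seq at 1e-05 at 0 in all 4 lines (0.144% to 0.833%). Within 1 kb of a start site, SUZ12 was at 0 in *Ezh1/2* dKO (0.743%) and 4 in *Ezh2* Y726D (8.87%). H3K27ac was there at 1 in each (24.3% and 41.1%). The *Ezh1/2* dKO SUZ12 peak and the H3K27ac peaks at *Hoxb7* fall outside that window of the GENCODE start. That start lies 2471 bp before the coding sequence. Counting only summits, H3K27me3 in *Ezh2* KO was at 4 (14.2%), since 1 peak spans 8 genes. H3K27me2 in *Ezh1/2* dKO and *Ezh2* Y726D, at 4 and 6 in the main count, was at 0 at 1e-05 (0.054% and 0.0225%). Within 1 kb it was at 0 as well (49.8% and 56.5%). In *Ezh2* KO, H3K27me2 went from 10 to 3 by region centres (46.4%). Another 40 counts of promoters with SUZ12, H3K27me3, H3K27ac or ATAC-seq stayed within 1.5 times.

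Replicate numbers are shared between lines, but deviations of same-numbered libraries correlated between -0.41 and 0.29, so the numbers were not taken as pairs. With the replicate number as a block, 1 *Hoxb* gene was called in *Ezh1/2* dKO against WT (*Hoxb7*, limma adjusted p of 0.0379), 1 in *Ezh2* Y726D against WT, 1 in *Ezh1/2* dKO against *Ezh2* KO and 0 in the others, as without it. Depth limits *Hoxb2*, *Hoxb3* and *Hoxb4*, which had at most 10 reads per line.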
